A study of Mus musculus with 6 samples.

Results

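The mitochondrial ribosomal protein genes were examined in the hearts of mice with heart failure with preserved ejection fraction (HFpEF) and in those of chow-fed mice. They were taken as every protein-coding row whose GENCODE symbol begins with Mrpl or Mrps followed by a number, which gave 78 of the 54532 gene identifiers deposited. By symbol, 49 were Mrpl genes and 29 were Mrps genes. By the place of the protein in the ribosome, 51 belonged to the large subunit and 26 to the small subunit, because Mrps18a and Mrps30 encode proteins that sit in the large subunit. The remaining gene, Mrps36, encodes a protein that has since been assigned to the 2-oxoglutarate dehydrogenase complex.

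Mitochondria carry their own ribosome, which translates the few proteins encoded by mitochondrial DNA, all of them core subunits of the respiratory chain and of ATP synthase. Its rRNAs are transcribed in the organelle, whereas every ribosomal protein is encoded in the nucleus, made in the cytosol and imported. The heart depends on oxidative phosphorylation for most of its ATP, and cardiomyocytes are among the cells richest in mitochondria.

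The study asked which transcripts differ between HFpEF and Chow hearts. In the "two-hit" model, male C57BL/6 mice received for 12 weeks a high-fat diet (HFD) with 60% of its calories from fat, and drank water with 0.5 g/L of L-NAME, which blocks nitric oxide synthases. They were 6 to 8 weeks old when obtained, per the study's methods. Chow mice ate standard chow and drank regular water over the same period, so diet and L-NAME differed together and their effects cannot be told apart. Each group had 3 libraries of bulk RNA, which the study's methods describe as 3 distinct mice per group and as left ventricular myocardium, while the sample labels say heart. The labels name no transgene or gene deletion in either group.

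The values are FPKM, fragments scaled to exon length and to a denominator for each library. From them, summed reads of 13076772 to 15574914 per Chow library and 13461735 to 16027084 per HFpEF library were recovered. The denominator lay below the summed reads in every Chow library, at 11734300 to 14239700. In every HFpEF library it lay above them, at 13847600, 16942900 and 19316900 for replicates 1, 2 and 3. The deposited values were thus not scaled to the summed reads alone, and such a scaling was not run. HFpEF replicate 3 stood apart from the other libraries: 7.17% of its reads came from the mitochondrial genome, against 20.1% and 22.6% in the other HFpEF libraries and 24.0% to 26.0% in Chow. On the first principal component of all genes tested, which held 42.3% of the variance, it lay at 75.5, the other HFpEF libraries at 11.6 and 12.7, and the Chow libraries between −35.8 and −31.7. Results are therefore given with and without it. All 12 ventricular cardiomyocyte markers were detected in every library, with a summed FPKM of 18912 to 20514 in Chow and of 13544, 14324 and 9073 in HFpEF replicates 1, 2 and 3. Summed over their lists, markers of fibroblasts and adipocytes were higher in the HFpEF libraries. The summed FPKM of 10 fibroblast markers was 730.0 to 917 in Chow and 1353, 1417 and 6235 in HFpEF, and that of 10 adipocyte markers was 11.6 to 13.9 in Chow and 102, 103 and 45.1 in HFpEF.

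Almost every mitochondrial ribosomal protein gene had less transcript in the HFpEF libraries than in the Chow libraries. Added up over the members, FPKM was 1760, 1776 and 1791 in Chow and 1314, 1376 and 978 in HFpEF. The groups did not overlap, the 3 Chow sums lay close together, and HFpEF replicate 3 was the lowest. Of the 78 members, 77 had 3 or more libraries at an FPKM of 0.5 or above and were tested, and 76 of these had a log2 fold change below 0, against 51.2% of the 14227 genes tested. For 68 of the 77, every HFpEF library lay below every Chow library, against 19.8% of all genes tested, and for none did every HFpEF library lie above (15.5% of all genes). The median log2 fold change of HFpEF over Chow was −0.51, with a middle range of −0.61 to −0.43, whereas the median over all genes tested was −0.012. Scaling to the summed FPKM of nuclear genes, an alternative added after seeing the data, shifted the median of all genes to 0.23 and that of the members to −0.26. Under it 74 members stayed below 0, 36 did not overlap, and Mrpl24 and Mrpl52 turned above 0. Such a scaling shifts all genes nearly alike, so the members' distance from the median of all genes, −0.50, could hardly change.

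No single member passed the threshold of the test. With limma fitted over all genes tested and Benjamini-Hochberg adjustment, 0 of 77 members had an adjusted p under 0.05. The adjusted p of the members ran from 0.0963 for Mrpl51 to 0.977 for Mrpl52. Few genes of any kind passed, 14 in all or 0.0984%, of which 1 was lower in HFpEF (0.00703%) and 13 were higher (0.0914%). At an unadjusted p under 0.05, limma gave 61 members lower and 0 higher, beside 13.1% of all genes lower and 10.2% higher. Without Chow replicate 1 the 61 became 39, without Chow replicate 2 they became 40, and under the nuclear scaling 27. With a log2 fold change of 2 or more in either direction required besides the adjusted p by limma, 8 genes passed (0.0562%) and no member was among them. The exact permutation test of a single gene, with 3 mice against 3, cannot give a two-sided p below 0.1. Because the RNA was bulk, fewer cells of a type and less RNA per cell cannot be told apart in any of these values.

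**Figure D1:**
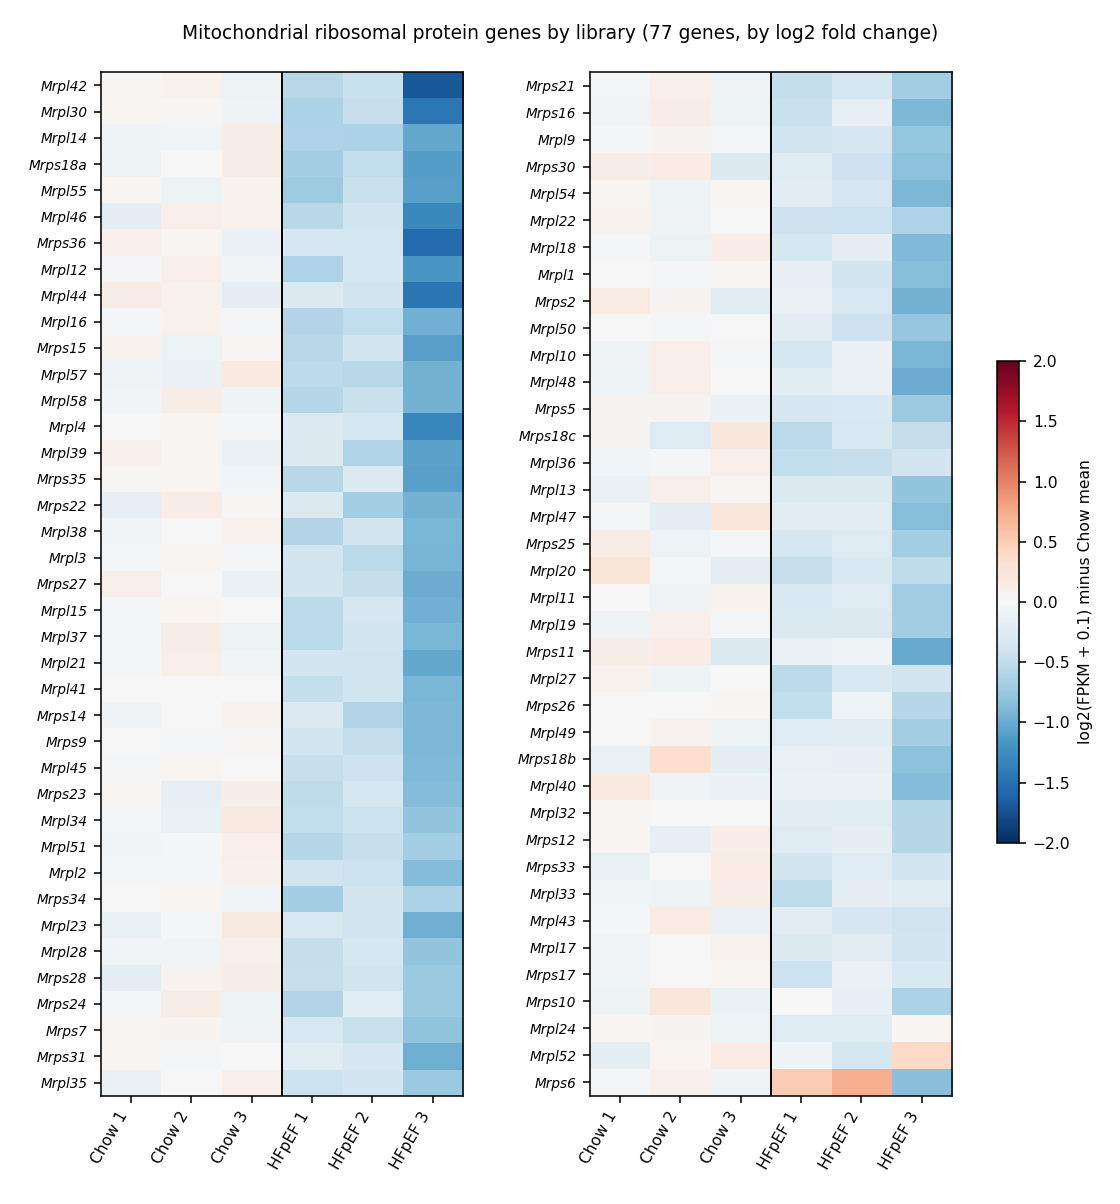
Level of each of the 77 tested mitochondrial ribosomal protein genes (rows, ordered by log2 fold change down the left and then the right panel) in each of the 6 libraries (columns), as log2(FPKM + 0.1) minus the mean of the 3 Chow libraries. Blue is below and red above the Chow mean. Nearly all cells of the 3 HFpEF columns are blue, HFpEF replicate 3 is the darkest column, and Mrps6 and Mrpl52, at the foot of the right panel, are the main exceptions.

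The 3 HFpEF libraries agreed in direction but not in size. As the median over members of the log2 difference from the Chow mean, they lay at −0.39, −0.35 and −0.86 for replicates 1, 2 and 3. HFpEF replicate 3 was the lowest of the 6 libraries for 69 of the 77 members, against 34.6% of all genes tested, replicate 1 for 7 members and replicate 2 for 1. A Chow library was the highest for 75 members. Without regard to replicate 3, HFpEF replicates 1 and 2 both lay below every Chow library for 69 members, against 24% of all genes. With HFpEF replicate 3 included, the spread between libraries was wider in HFpEF: the median coefficient of variation of a member was 6.31% in Chow and 18.6% in HFpEF. That of HFpEF replicates 1 and 2 alone was not computed.

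Leaving out HFpEF replicate 3 made the differences smaller, and more of them passed the test. The median log2 fold change became −0.39, and limma then gave 29 members lower at an adjusted p under 0.05, against 5.5% of all genes tested, and 1 member, Mrps6, higher, against 2.85%. Of the 29, 23 were of the large subunit and 6 of the small subunit. Mrpl16 had the smallest adjusted p in that fit (0.0160 by limma, log2 fold change −0.54), and Mrpl14 the largest decrease, a log2 fold change of −0.63 at an adjusted p of 0.0168 by limma. Leaving out any other library gave no member an adjusted p under 0.05.

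**Figure D2:**
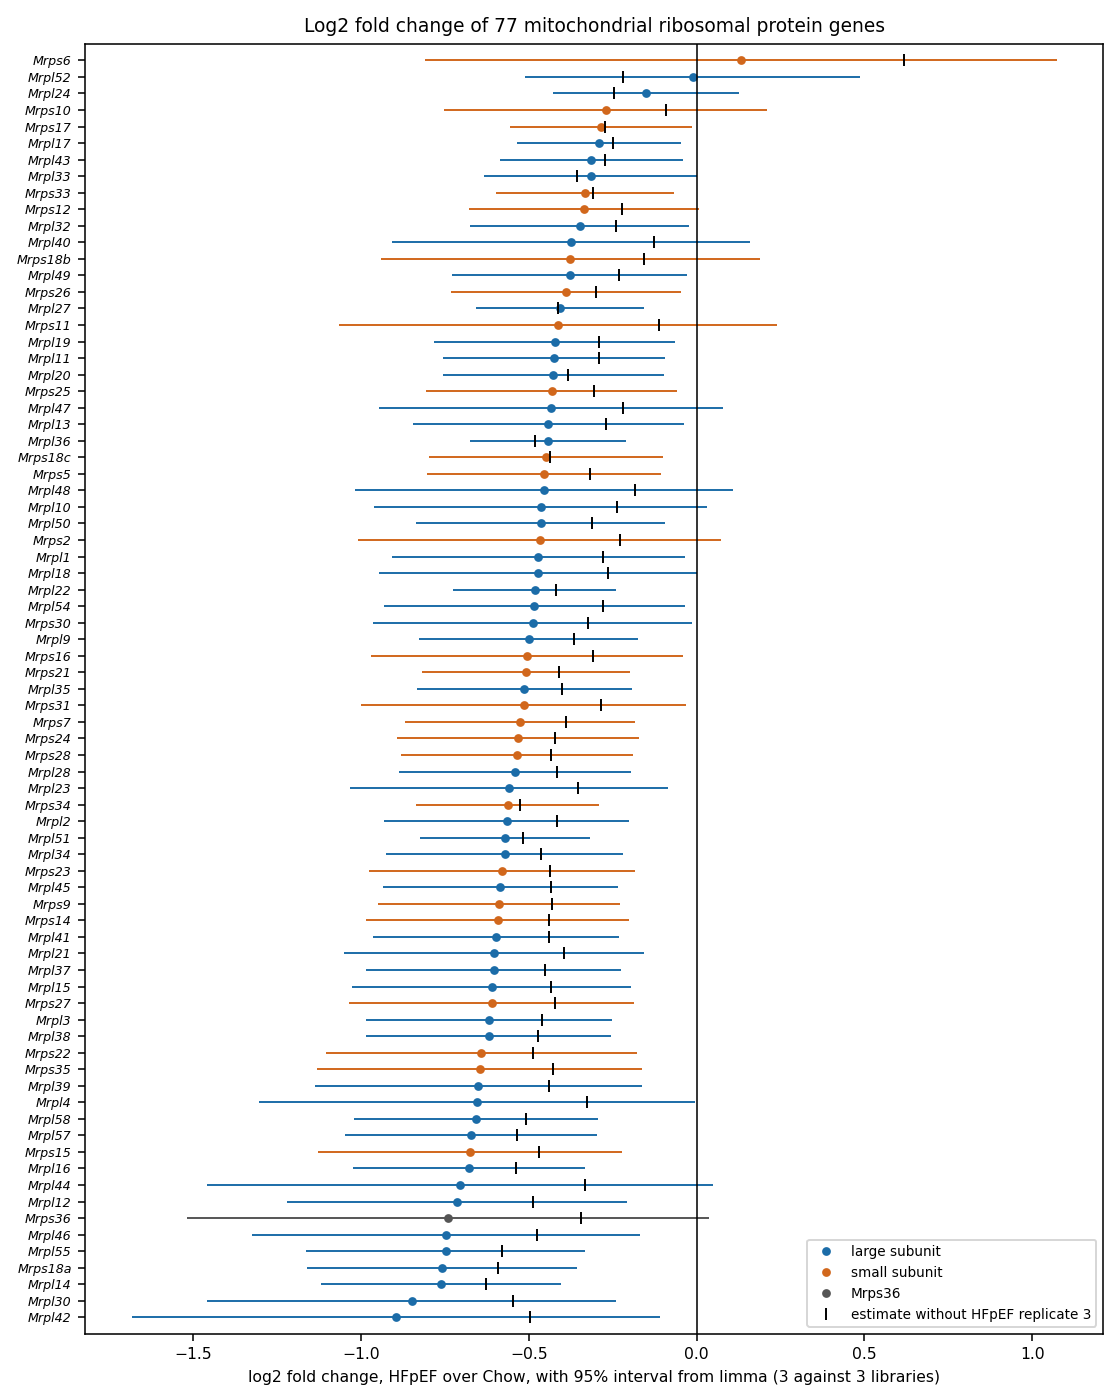
Log2 fold change of HFpEF over Chow (horizontal axis) for the 77 tested members (rows), as points with 95% intervals from limma, with large subunit members in blue, small subunit members in orange and Mrps36 in grey. Black ticks give the estimate without HFpEF replicate 3, which for most members lies closer to 0. All points but that of Mrps6 are left of 0.

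The subunits had similar values. The median log2 fold change was −0.53 over 50 large subunit members and −0.51 over 26 small subunit members, and non-overlap with every HFpEF library lower was found for 46 and 21 of them, respectively. The summed FPKM of the large subunit was 2.458 to 2.502 times that of the small subunit in Chow and 2.33 to 2.43 times in HFpEF. Members with a homolog in bacterial ribosomes (46, median −0.49) and members particular to mitochondria (30, median −0.58) also had similar medians. Across the 77 members, the log2 fold change had a Spearman rho of −0.43 with the mean FPKM and of 0.077 with exon length, as a description over genes that share the same 6 libraries. With a pseudocount of 0.01 in place of 0.1, the members' median relative to that of all genes moved from −0.50 to −0.51. The rho was not recomputed under it.

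Transcript levels, compared per length of exon, differed 23.7-fold among the tested members, from a mean FPKM over all 6 libraries of 2.77 for Mrps10 to 65.7 for Mrps23, with a median of 14.7. The highest were Mrps23, Mrpl34, Mrps21, Mrpl28 and Mrpl2. Mrps23, a mitochondria-specific protein of the small subunit, had FPKM of 80.4, 69.9 and 85.1 in Chow and 54.7, 60.96 and 42.9 in HFpEF. Mrpl34 had FPKM of 72.8, 66.9 and 83.5 in Chow and 52.5, 55.04 and 42.8 in HFpEF. In both genes the groups did not overlap, and the limma log2 fold changes were −0.58 (SE 0.16) and −0.57 (SE 0.15), with adjusted p of 0.132 and 0.119. Mrps21 had FPKM of 66.7, 72.5 and 64.3 in Chow and 48.9, 53.1 and 41.7 in HFpEF, and Mrpl28 of 65.3, 65.1 and 72.6 in Chow and 48.5, 52.96 and 39.01 in HFpEF. The lowest were Mrps10, Mrpl32, Mrps25, Mrps30 and Mrpl19. Mrps10 had FPKM of 2.83, 3.52 and 2.72 in Chow and 2.98, 2.66 and 1.91 in HFpEF, and its groups overlapped. Mrpl32 had FPKM of 3.38, 3.32 and 3.32 in Chow and 2.84, 2.80 and 2.22 in HFpEF, with the 3 Chow values nearly equal and all above those of HFpEF. Mrps25 (4.09, 3.44 and 3.58 in Chow and 2.86, 3.09 and 2.26 in HFpEF) and Mrpl19 (3.83, 4.31 and 3.97 in Chow and 3.28, 3.28 and 2.46 in HFpEF) did not overlap either. Neighbours in this order were seldom distinct: when members were ranked by their Chow mean, 7 of 76 adjacent pairs had Chow libraries that did not overlap. The recovered reads of the tested members ran from 92 to 3192 per gene and library, with a median of 482.5.

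The large subunit forms the peptide bond in its peptidyl transferase centre, and 4 members border that region. Mrpl3 (uL3m) had FPKM of 17.5, 18.4 and 17.5 in Chow and 13.6, 12.2 and 9.25 in HFpEF. Mrpl2 (uL2m) had FPKM of 57.04, 57.04 and 62.4 in Chow and 44.6, 43.4 and 32.3 in HFpEF. Mrpl16 (uL16m) had FPKM of 45.3, 48.1 and 44.5 in Chow and 30.6, 32.6 and 23.6 in HFpEF. In each of them the lowest Chow library was above the highest HFpEF library. The log2 fold changes by limma were −0.62 (95% interval −0.99 to −0.25, adjusted p = 0.119) for Mrpl3, −0.57 (interval −0.93 to −0.20, adjusted p = 0.123) for Mrpl2 and −0.68 (interval −1.02 to −0.33, adjusted p = 0.106) for Mrpl16. Mrpl27 (bL27m) was the fourth, and the median of the 4 was −0.59. Without HFpEF replicate 3, Mrpl3, Mrpl2 and Mrpl16 fell, with limma adjusted p of 0.0255, 0.0246 and 0.0160.

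The new protein leaves through the exit tunnel, whose wall and rim include 8 members, with a median log2 fold change of −0.57. Mrpl45, which holds the ribosome to the inner membrane, had FPKM of 24.8, 26.0 and 25.3 in Chow and 18.5, 19.1 and 13.6 in HFpEF. Mrpl4 (uL4m) had FPKM of 35.6, 36.8 and 34.98 in Chow and 29.2, 27.9 and 14.4 in HFpEF. Mrpl22 (uL22m) had FPKM of 18.2, 16.4 and 17.4 in Chow and 13.01, 12.9 and 11.3 in HFpEF. None of these overlapped between groups. They differed in how far HFpEF replicate 3 lay from its group, which was little in Mrpl22 and much in Mrpl4. Accordingly, limma gave Mrpl22 a smaller standard error (−0.48, SE 0.10, adjusted p = 0.106) than Mrpl4 (−0.65, SE 0.27, adjusted p = 0.213). Mrpl44 had the lowest log2 fold change of the group, with FPKM of 33.97, 32.6 and 27.01 in Chow and 25.4, 23.9 and 11.3 in HFpEF and an estimate of −0.71 that shrank to −0.33 without HFpEF replicate 3. The eighth, Mrpl24 (uL24m), differed from the rest, with FPKM of 15.7, 15.9 and 14.3 in Chow and 12.8, 12.9 and 15.7 in HFpEF: HFpEF replicates 1 and 2 lay below every Chow library and replicate 3 did not (log2 fold change −0.15, limma adjusted p = 0.447).

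Translation factors dock on the stalk, which 3 members form or anchor. Mrpl12 (bL12m), the stalk protein itself, had FPKM of 55.2, 60.7 and 54.3 in Chow and 36.7, 44.4 and 25.2 in HFpEF. Its groups did not overlap, and its mean was 37.5% below Chow (56.7 ± 3.45 in Chow and 35.4 ± 9.69 in HFpEF, SD, n = 3 each). The limma log2 fold change was −0.71 (SE 0.21, adjusted p = 0.141), and −0.49 (adjusted p = 0.0427) without HFpEF replicate 3. Its anchors Mrpl10 (uL10m) and Mrpl11 (uL11m) had log2 fold changes of −0.46 and −0.42. Mrpl10 had FPKM of 29.2, 33.03 and 30.2 in Chow and 24.1, 28.2 and 16.2 in HFpEF, and Mrpl11 of 12.5, 11.9 and 13.2 in Chow and 10.03, 10.4 and 7.71 in HFpEF, both without overlap. Of 7 members in the central protuberance, which faces the small subunit, 5 were without overlap and lower, with a median of −0.47.

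Among the other large subunit members were those with the smallest p and those with the largest differences. Mrpl51 (mL51; ENSMUSG00000030335, GRCm38 chr6:125191801-125196269, plus strand) had FPKM of 27.0, 27.2 and 30.1 in Chow and 18.8, 20.4 and 17.5 in HFpEF. Its groups were far apart, at 28.1 ± 1.73 in Chow and 18.9 ± 1.48 in HFpEF (SD, n = 3 each). The limma log2 fold change was −0.57 (95% interval −0.82 to −0.32) at an adjusted p of 0.0963. Mrpl14 (uL14m), at the face where the subunits meet, had FPKM of 55.9, 57.3 and 65.3 in Chow and 38.7, 38.1 and 29.02 in HFpEF, without overlap and with a log2 fold change of −0.76 (limma adjusted p = 0.0989). Mrpl36 (bL36m) had FPKM of 20.8, 21.02 and 23.2 in Chow and 15.3, 15.6 and 16.8 in HFpEF; here HFpEF replicate 3 was the highest of its group. Its log2 fold change was −0.44 (limma adjusted p = 0.107) with that library and −0.48 (limma adjusted p = 0.0234) without it. Mrpl58, a peptidyl-tRNA hydrolase that became part of the ribosome, had FPKM of 11.1, 12.4 and 10.99 in Chow and 7.68, 8.45 and 5.90 in HFpEF and a log2 fold change of −0.66. Mrpl42 and Mrpl30 had the largest estimates, and were named for that after their values were seen. Mrpl42 had FPKM of 60.9, 63.1 and 55.8 in Chow and 40.9, 43.9 and 18.4 in HFpEF and a log2 fold change of −0.90. Mrpl30 had FPKM of 34.3, 33.8 and 31.8 in Chow and 21.4, 24.2 and 12.1 in HFpEF and a log2 fold change of −0.85. In both, HFpEF replicate 3 carried much of the size, and without it the log2 fold changes were −0.50 and −0.55, with limma adjusted p of 0.0213 and 0.0193.

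Of the 2 members with an Mrps symbol in the large subunit, Mrps18a (mL66) had FPKM of 11.3, 12.1 and 13.3 in Chow and 7.58, 8.61 and 5.67 in HFpEF, without overlap, and Mrps30 (mL65) of 4.32, 4.43 and 3.29 in Chow and 3.35, 2.98 and 2.21 in HFpEF, with the lowest Chow library just below the highest HFpEF library. Mrps18a belongs to a family of 3 related genes whose other products are in the small subunit. Mrps18c (bS18m) had FPKM of 9.40, 7.53 and 10.5 in Chow and 6.16, 7.19 and 6.49 in HFpEF, also without overlap. Mrps18b (mS40) had FPKM of 5.41, 7.64 and 5.26 in Chow and 5.42, 5.37 and 3.37 in HFpEF, and its groups overlapped. The log2 fold changes of the family were −0.76 for Mrps18a, −0.45 for Mrps18c and −0.38 for Mrps18b, with limma adjusted p of 0.109, 0.156 and 0.360. The difference between the 3 genes was not tested.

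The small subunit reads the mRNA. Mrps12 (uS12m), which lies at the decoding site, had FPKM of 26.7, 23.2 and 28.9 in Chow and 21.8, 23.04 and 17.7 in HFpEF, and a log2 fold change of −0.34 (95% interval −0.68 to 0.0062, limma adjusted p = 0.219). In the head of the subunit, Mrps7 (uS7m) had FPKM of 29.6, 30.3 and 27.9 in Chow and 23.3, 21.4 and 16.7 in HFpEF. Mrps14 (uS14m) had FPKM of 11.7, 12.3 and 12.9 in Chow and 10.1, 8.14 and 6.55 in HFpEF. All 3 were lower in every HFpEF library than in any Chow library. Mrps2 (uS2m) had FPKM of 11.4, 10.6 and 8.75 in Chow and 9.21, 8.13 and 5.23 in HFpEF, so that HFpEF replicate 1 lay within the Chow range, and Mrps16 (bS16m) of 10.2, 11.6 and 9.92 in Chow and 7.72, 9.36 and 5.60 in HFpEF, without overlap. Among members particular to mitochondria, Mrps34 had FPKM of 17.02, 17.4 and 16.2 in Chow and 10.5, 13.01 and 10.8 in HFpEF and Mrps22 of 3.91, 4.81 and 4.43 in Chow and 3.58, 2.66 and 2.22 in HFpEF, both without overlap. Limma gave Mrps34 a log2 fold change of −0.56 (SE 0.11, adjusted p = 0.1001) and Mrps22 one of −0.64 (SE 0.19, adjusted p = 0.144). Mrps36, the gene whose product is assigned to 2-oxoglutarate dehydrogenase, had FPKM of 30.7, 29.7 and 26.8 in Chow and 22.9, 22.8 and 9.95 in HFpEF, with a log2 fold change of −0.74 (limma adjusted p = 0.229) that was −0.34 without HFpEF replicate 3.

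**Figure D3:**
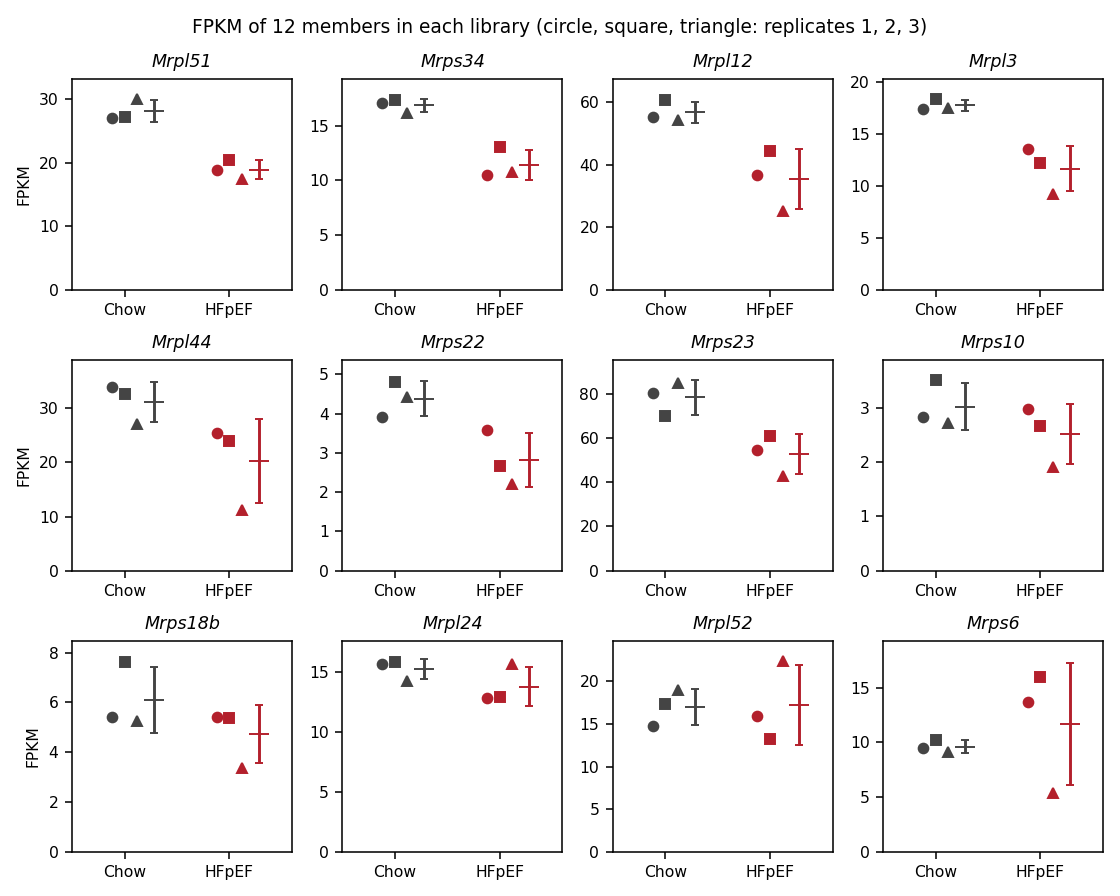
FPKM (vertical axes, each from 0) of 12 members in the 3 Chow libraries (grey) and the 3 HFpEF libraries (red), with circle, square and triangle for replicates 1, 2 and 3 and a bar for the mean ± SD of each group. In Mrpl51, Mrps34, Mrpl12, Mrpl3, Mrpl44, Mrps22 and Mrps23 the groups do not overlap, and in Mrps10, Mrps18b, Mrpl24, Mrpl52 and Mrps6 they do.

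Mrps6 and Mrpl52 did not share the common pattern. Mrps6 (bS6m; ENSMUSG00000039680, GRCm38 chr16:92058270-92112227, plus strand) had FPKM of 9.49, 10.2 and 9.12 in Chow and 13.7, 15.98 and 5.34 in HFpEF. HFpEF replicates 1 and 2 were thus above every Chow library and replicate 3 below every one. The limma log2 fold change was 0.13 (95% interval −0.81 to 1.07, adjusted p = 0.856), and without HFpEF replicate 3 Mrps6 rose, by 0.62 at an adjusted p of 0.0237. Exons of Mrps6 share 19.9% of their bases with Gm49711 on the same strand, which is listed at 0 in every library. They share 10.4% with Slc5a3, the myo-inositol transporter gene, also on the same strand. Slc5a3 had FPKM of 0.431, 0.352 and 0.765 in Chow and 1.39, 1.43 and 1.58 in HFpEF, so that all 3 HFpEF libraries were above Chow; its part in the values of Mrps6 was not tested. Mrpl52 (mL52), in the central protuberance, had FPKM of 14.8, 17.4 and 18.9 in Chow and 15.9, 13.3 and 22.5 in HFpEF. Its highest library was HFpEF replicate 3 and its lowest HFpEF replicate 2, and the log2 fold change was −0.012 (95% interval −0.51 to 0.49).

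Mrpl53 (mL53; ENSMUSG00000030037, GRCm38 chr6:83109040-83109939, plus strand) was the member not tested, and is listed at 0 in all 6 libraries. Of its 790 exon bases, 695 (88.0%) are also exon of Gm42688 on the same strand, which had FPKM of 0.119 to 0.296. A listing of 0 for a gene in such an overlap does not show that it was not transcribed. In all, 33 members share exon bases with another gene, 9 of them over more than 20% of their exon length. The kit's strand setting is not given in the sources used here, so for those on opposite strands the reads of both genes cannot be told apart either. Mrps34 shares 63.4% of its exon bases with Mapk8ip3 on the opposite strand, which had FPKM of 8.10, 8.22 and 7.59 in Chow and 7.43, 7.55 and 6.53 in HFpEF. It also shares 37.0% with Nme3 on the same strand, which is listed at 0 in every library. Mrps25 shares 69.8% with Nr2c2 on the opposite strand, which had FPKM of 1.76, 1.80 and 1.83 in Chow and 2.02, 1.94 and 1.85 in HFpEF. Of 45 tested members with no shared exon base, 41 had every HFpEF library below every Chow library, against 19.8% of all genes tested. The part of shared exon bases in the values of the others was not tested. Among rows labelled as pseudogenes by their symbol, 5 carry an Mrpl or Mrps name, with a highest FPKM of 10.6; copies under other names were not searched for.

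Because most members differed in the same direction, the sequence before their starts was examined. RefSeq promoter windows on GRCm38.p6, which run from 250 bases before to 50 bases after a start, were matched by symbol for 69 members, giving 75 windows among 32851. Motifs were searched on both strands, and 7 of a longer set of candidates were kept after their shares had been seen, so the shares are descriptions. The NRF1 motif (GCGC, then 1 base of any kind, then TGCGC) was in 17.3% of the member windows and 4.6% of all windows. The ETS motif CCGGAAGT was in 16% and 3.89%, and the YY1 motif AAGATGGC in 16% and 2.75%. NRF1, the ETS factor GABP and YY1 are textbook regulators of nuclear genes for mitochondrial proteins. GGGCGG, the SP1 motif, was in 52% against 35.7%, CACGTG, the E-box, in 9.33% against 7.15%, and TATAAA in 6.67% against 13.6%. TCAAGGTCA, the motif of estrogen-related receptors, was in none of the member windows and in 0.423% of all. The motifs of SP1 and NRF1 are rich in G and C, and the bases before member starts had a median GC content of 58.4%, against 52.4% over all windows. Members with and without a motif had similar medians, a difference that was not tested: the median log2 fold change was −0.59 for the 13 with NRF1 and −0.48 for the 55 without, −0.45 for the 12 with ETS and −0.51 for the 56 without, and −0.52 for the 12 with YY1 and −0.50 for the rest.

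The 250 bases before the start are shown for 6 members, from RefSeq on GRCm38.p6, with every match to one of these motifs in capitals. Mrpl12 (chr11:120484387-120484636, plus strand) and Mrpl45 (chr11:97315466-97315715, plus strand) are shown for the NRF1 motif, Mrpl51 (chr6:125191950-125192199, plus strand) and Mrpl3 (chr9:105053018-105053267, plus strand) for the ETS motif, Mrpl36 (chr13:73330759-73331008, plus strand) for the YY1 motif, and Mrps6 (chr16:92058086-92058335, plus strand) as the member with an estimate above 0.
Mrpl12: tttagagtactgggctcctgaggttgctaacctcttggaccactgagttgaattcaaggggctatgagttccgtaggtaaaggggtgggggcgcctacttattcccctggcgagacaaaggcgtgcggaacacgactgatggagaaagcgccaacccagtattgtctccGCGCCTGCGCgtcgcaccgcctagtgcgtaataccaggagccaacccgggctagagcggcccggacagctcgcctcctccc
Mrpl45: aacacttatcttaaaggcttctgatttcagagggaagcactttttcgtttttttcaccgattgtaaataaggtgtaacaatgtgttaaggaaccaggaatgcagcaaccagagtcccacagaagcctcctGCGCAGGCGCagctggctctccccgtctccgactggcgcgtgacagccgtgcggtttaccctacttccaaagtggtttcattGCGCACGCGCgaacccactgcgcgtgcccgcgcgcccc
Mrpl51: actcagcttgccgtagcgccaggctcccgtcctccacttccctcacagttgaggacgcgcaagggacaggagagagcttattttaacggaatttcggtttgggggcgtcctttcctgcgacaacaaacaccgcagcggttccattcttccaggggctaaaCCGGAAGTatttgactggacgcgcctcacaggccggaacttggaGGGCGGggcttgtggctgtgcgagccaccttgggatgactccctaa
Mrpl3: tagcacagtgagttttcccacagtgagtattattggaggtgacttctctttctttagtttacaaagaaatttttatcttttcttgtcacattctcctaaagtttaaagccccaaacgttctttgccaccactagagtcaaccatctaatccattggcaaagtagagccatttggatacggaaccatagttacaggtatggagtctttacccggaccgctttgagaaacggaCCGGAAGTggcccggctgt
Mrpl36: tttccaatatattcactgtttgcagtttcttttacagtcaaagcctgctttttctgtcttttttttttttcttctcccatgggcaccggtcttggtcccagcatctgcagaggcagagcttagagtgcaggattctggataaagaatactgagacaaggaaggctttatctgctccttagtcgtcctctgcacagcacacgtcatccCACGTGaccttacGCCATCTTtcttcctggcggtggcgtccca
Mrps6: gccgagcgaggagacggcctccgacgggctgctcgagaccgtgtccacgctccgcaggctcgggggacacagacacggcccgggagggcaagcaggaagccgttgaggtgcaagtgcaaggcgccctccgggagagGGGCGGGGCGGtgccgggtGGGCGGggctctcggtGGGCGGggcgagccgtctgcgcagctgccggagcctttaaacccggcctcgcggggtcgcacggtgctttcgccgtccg
In Mrpl45 the NRF1 motif is met at 2 places, and in Mrpl36 the YY1 motif lies on the reverse strand, as GCCATCTT, close to an E-box. Mrpl51 holds an SP1 motif besides the ETS motif, Mrpl12 the NRF1 motif alone and Mrpl3 the ETS motif alone. In Mrps6 the window has a GC content of 74.4%, with SP1 motifs that in part overlap each other and none of the others. Mrpl52 and Mrpl24, the other members with small differences, hold none of the 7 motifs in these bases.

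Many members start head to head with another gene. By GENCODE gene starts, 33 of 78 members (42.3%) had a gene on the opposite strand that starts within 1000 bases and runs the other way, against 10.8% of 22028 protein-coding genes. Of these neighbours, 25 were tested and are no members themselves, and 19 of them had a log2 fold change below 0 (51.2% of all genes tested). Every HFpEF library lay below every Chow library for 11 of the 25 (19.8% of all genes) and above for 2 (15.5% of all genes), and their median log2 fold change was −0.18. Among members with such a tested neighbour, the 4 with the smallest p differed in this. Ndufs6, a subunit of complex I beside Mrpl36, had FPKM of 202, 221 and 227 in Chow and 125, 119 and 84.7 in HFpEF, without overlap (log2 fold change −1.0, SE 0.18, limma adjusted p = 0.0963). Tmem63b, an ion channel gene beside Mrpl14, had FPKM of 22.9, 23.5 and 22.5 in Chow and 17.0, 16.1 and 12.6 in HFpEF, again without overlap, at a log2 fold change of −0.60. Exons of Mrpl14 share 106 bases (11.2%) with Tmem63b, and those of Mrpl36 share 30 (2.58%) with Ndufs6. The part of these shared bases in the values was not tested. Ncapd2, a condensin subunit beside Mrpl51, had FPKM of 3.68, 4.19 and 4.50 in Chow and 4.62, 4.09 and 5.21 in HFpEF, and Eme2, part of a DNA endonuclease, beside Mrps34, had a log2 fold change of −0.035. Both overlapped between groups. Mrpl46 and Mrps11 are members that face each other: Mrpl46 had FPKM of 19.3, 23.4 and 22.8 in Chow and 14.8, 16.5 and 8.82 in HFpEF, without overlap, and Mrps11 of 8.02, 8.21 and 6.09 in Chow and 6.67, 6.96 and 3.60 in HFpEF, with overlap.

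**Figure D4:**
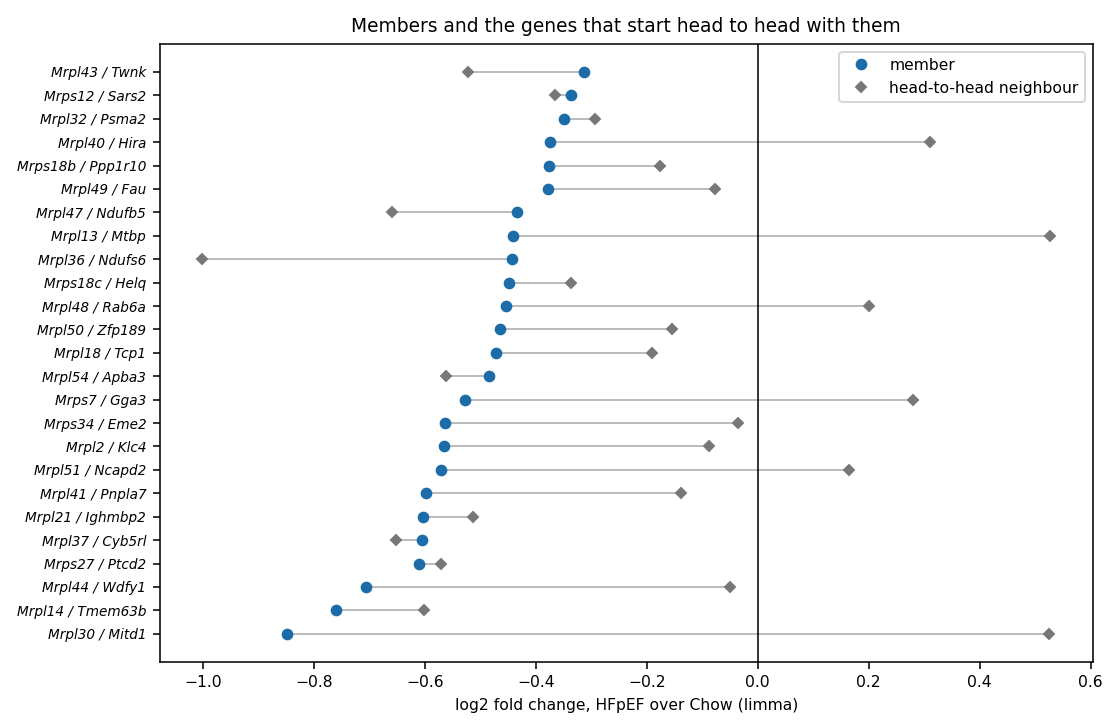
Log2 fold change of HFpEF over Chow for members (blue circles) and for the tested gene that starts head to head with each within 1000 bases (grey diamonds), 1 pair per row joined by a line. All members shown lie left of 0, and the neighbours spread over both sides, 19 of 25 to the left.

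Other parts of the mitochondrial ribosome and its helpers were read from lists. All 5 ribosomal proteins with other symbols had every HFpEF library below every Chow library (19.8% of all genes tested), with a median log2 fold change of −0.55. Ptcd3 (mS39) had FPKM of 19.8, 21.1 and 21.4 in Chow and 16.4, 15.8 and 9.84 in HFpEF, and Dap3 (mS29), also known as a death-associated protein, of 13.9, 14.1 and 13.1 in Chow and 11.02, 11.5 and 9.10 in HFpEF. Chchd1 (mS37), Aurkaip1 (mS38) and Gadd45gip1 (mL64) had log2 fold changes of −0.37, −0.55 and −0.67. None of the 5 passed an adjusted p of 0.05 by limma (lowest 0.119), and 3 did without HFpEF replicate 3 (5.5% of all genes tested were lower there). The 2 mitochondrially encoded rRNAs, mt-Rnr1 (1902, 1620 and 2221 in Chow and 1402, 1291 and 769 in HFpEF) and mt-Rnr2 (2579, 2827 and 3524 in Chow and 2208, 2434 and 1375 in HFpEF), did not overlap either. With quantile normalization their log2 fold changes turned above 0, from −0.77 to 0.060 for mt-Rnr1 and from −0.60 to 0.095 for mt-Rnr2.

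Of 17 translation factors listed, 14 were tested, none passed an adjusted p of 0.05 by limma, all had a log2 fold change below 0 (median −0.56), and 11 were without overlap and lower. Tufm, the elongation factor that brings tRNAs, had FPKM of 84.6, 92.7 and 94.01 in Chow and 62.5, 62.8 and 40.8 in HFpEF. Its exchange factor Tsfm had FPKM of 9.72, 9.58 and 10.3 in Chow and 7.45, 7.30 and 6.43 in HFpEF, and Gfm1, the translocase, of 44.02, 45.2 and 48.9 in Chow and 34.4, 35.02 and 21.2 in HFpEF. All 3 were without overlap, with log2 fold changes of −0.73, −0.48 and −0.64. Without HFpEF replicate 3, 6 of the 14, these among them, fell, against 5.5% of all genes tested. The initiation factors Mtif2 and Mtif3 had log2 fold changes of −0.31 and −0.41, and the recycling factor Mrrf of −0.57. Lrpprc, which stabilises mitochondrial mRNAs, had FPKM of 31.4, 32.8 and 32.3 in Chow and 24.1, 22.98 and 17.6 in HFpEF, while its partner Slirp, at 0.0275 to 0.272, was below the minimum and was not tested. Among 25 assembly factors, 12 were without overlap and lower, and the median was −0.34. Eral1, a chaperone of the small subunit rRNA, had FPKM of 11.96, 12.1 and 11.6 in Chow and 7.50, 8.43 and 6.76 in HFpEF and the smallest p of that list (limma adjusted p = 0.0847), followed by Rcc1l (−0.44). The 17 mitochondrial tRNA synthetases had a median of −0.39 with 12 without overlap and lower, led by Lars2 (−0.46, limma adjusted p = 0.0981) and Yars2 (−0.62, limma adjusted p = 0.0998). For transcription and replication of mitochondrial DNA, 9 of 10 listed genes were tested, with a median of −0.32 and 7 without overlap and lower. In that list the helicase gene Twnk had a log2 fold change of −0.52, the elongation factor Tefm of −0.82, the packaging factor Tfam of −0.32 and the polymerase Polrmt of −0.40. Without HFpEF replicate 3, limma gave 2 genes lower in each of these 3 lists and 0 higher, against 5.5% and 2.85% of all genes tested. Non-overlap with every HFpEF library lower was found for 19.8% of all genes tested.

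The mRNAs that the mitochondrial ribosome translates also lay lower in the HFpEF libraries, with another pattern over them. Of 13, 10 were without overlap and lower, against 19.8% of all genes tested. Limma gave none an adjusted p under 0.05 (3 without HFpEF replicate 3, where 5.5% of all genes tested were lower). Over the 13 mitochondrially encoded protein genes, the median log2 difference from the Chow mean was −0.30, −0.52 and −2.43 in HFpEF replicates 1, 2 and 3, and their median log2 fold change was −1.07. The gap between replicate 3 and the others was thus wider than over the members (−0.39, −0.35 and −0.86). Without HFpEF replicate 3 the median log2 fold change of the 13 was −0.42, beside −0.39 over the members. With quantile normalization of all libraries that of the 13 was −0.20. mt-Co2, a subunit of complex IV, had the smallest p, with FPKM of 6414, 6883 and 6851 in Chow and 4774, 3752 and 1328 in HFpEF and a limma adjusted p of 0.201, and mt-Nd4l had a log2 fold change of −1.87. As a description, the members' median minus that of these mRNAs was −0.089, 0.17 and 1.56 in HFpEF replicates 1, 2 and 3.

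Further lists serve for comparison and were picked by symbol after the values had been seen. Of 86 nuclear genes for respiratory chain and ATP synthase subunits, 83 were tested, and all had a log2 fold change below 0. Of these, 78 were without overlap and lower (19.8% of all genes tested), and the median was −0.72. By library that list lay at −0.57, −0.46 and −1.12, in the same order as the members. Of 81 genes for ribosomal proteins of the cytosol, 78 were tested, 50 had a log2 fold change below 0 and 28 above, and the median was −0.058. Without overlap, 13 were lower and 3 higher, against 19.8% and 15.5% of all genes tested. By library the cytosolic list lay at −0.18, −0.092 and 0.089, so HFpEF replicate 3, the lowest library of the mitochondrial ribosome, was the highest of the cytosolic one. The median of the cytosolic list turned above 0 with quantile normalization (0.16) and under the nuclear scaling (0.20), where that of the respiratory chain list was −0.40 and −0.47. Without HFpEF replicate 3, 67 cytosolic genes lay below 0 and 11 above (median −0.13), and the respiratory chain median was −0.51. Limma then gave 62 respiratory chain and 4 cytosolic genes lower at an adjusted p under 0.05, against 5.5% of all genes tested. It gave 1 cytosolic gene higher, against 2.85%. The difference between lists was not tested.

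**Figure D5:**
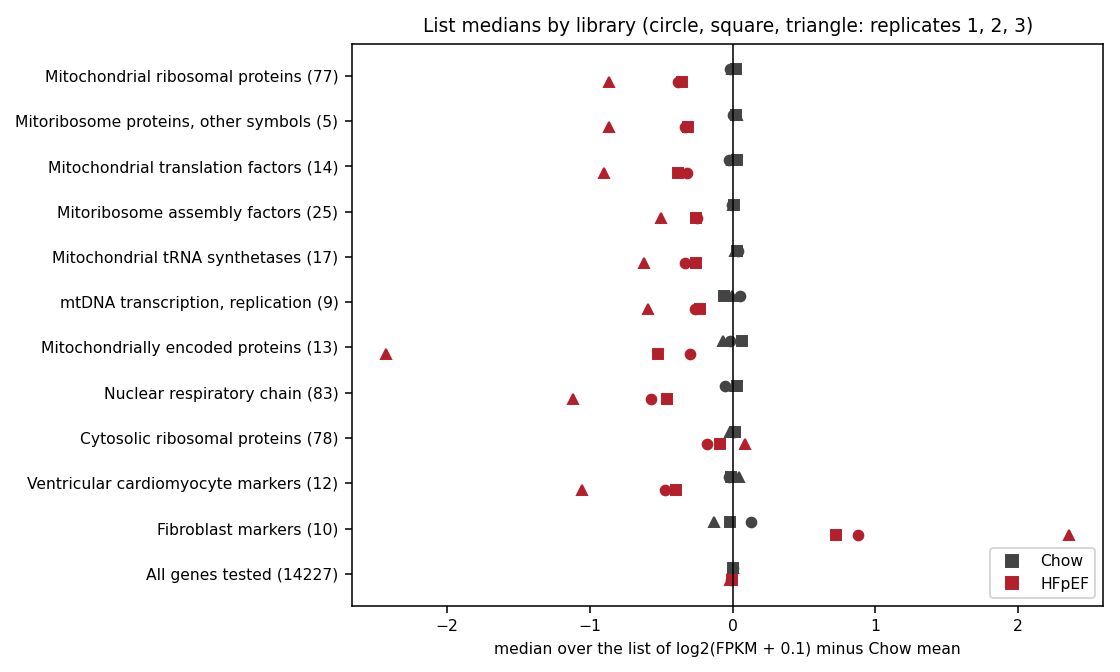
Median over each gene list (rows, number of tested genes in brackets) of log2(FPKM + 0.1) minus the Chow mean (horizontal axis), for the 3 Chow libraries (grey) and the 3 HFpEF libraries (red), with circle, square and triangle for replicates 1, 2 and 3. The mitochondrial lists and the ventricular cardiomyocyte markers lie left of 0 in HFpEF with replicate 3 farthest, the cytosolic ribosomal proteins lie near 0, and the fibroblast markers lie right of 0.

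Markers of cardiomyocytes differed in the same direction as the members. All 12 had every HFpEF library below every Chow library (19.8% of all genes tested), with a median log2 fold change of −0.68 and library medians of −0.47, −0.40 and −1.05. Myl2, the ventricular light chain, had FPKM of 2198, 2364 and 2275 in Chow and 1201, 1216 and 854 in HFpEF (log2 fold change −1.08, limma adjusted p = 0.0989), and Myl3 had a log2 fold change of −0.98. Without HFpEF replicate 3, limma gave 8 of the 12 lower, against 5.5% of all genes tested. Per 1000 FPKM of these markers, the members summed to 87.3 to 93.1 FPKM in Chow and to 97.0, 96.1 and 108 in HFpEF replicates 1, 2 and 3, so relative to these sums the members were not lower in any HFpEF library. With quantile normalization the log2 fold changes of Actc1, Atp2a2, Myh6 and Tnni3 turned above 0 (0.30, 0.22, 0.22 and 0.054), and the median of the 12 became −0.21, beside −0.48 for the members, so the order of the markers and the members depended on this choice. All 10 fibroblast markers had a log2 fold change above 0 (library medians 0.87, 0.72 and 2.36), 8 of them with every HFpEF library higher (15.5% of all genes tested). The same sign was found for all 9 macrophage markers (median 0.74, 4 with every HFpEF library higher). Their summed FPKM was 239 to 302 in Chow and 295, 403 and 958 in HFpEF. Of 10 adipocyte markers, 8 were tested, with a median of 5.19, and 4 of them rose, at an adjusted p under 0.05 by limma. Of the 8, 6 had a log2 fold change above 0 and 5 were without overlap and higher, while Lipe (−0.21) and Pparg (−0.089), genes active in other cells too, lay below 0 with overlap. Adipoq, Cfd, Cidec, Lep and Retn were listed at 0 in all 3 Chow libraries, and the adipocyte protease Cfd had FPKM of 22.9 to 37.8 in HFpEF. Of the liver markers, 3 of 8 were tested, with a median of 4.57, while Alb, which defines liver, was listed at 0 in all 6 libraries. The median of 9 endothelial markers was −0.20. Of 8 brown adipocyte and 9 skeletal muscle markers, 5 each were tested, with medians of −0.80 and −0.34. These lists share genes with others: Cox7a1 and Cox8b are also in the respiratory chain list, and Ckm is also a cardiomyocyte marker. Their medians therefore do not stand for brown fat or skeletal muscle alone. The part of a changed mix of cells in the values of the members was not tested.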

How the data were processed

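RNA was sequenced from 6 mouse hearts, 3 per group, grouped by the sample labels. Per the labels, libraries were made with a SMARTER mRNA-Seq kit, and the submitters' processing notes name GRCm38 and mm10. The authors used HISAT2 for alignment and featureCounts for counting, and FPKM is the unit they deposited; the strand setting and annotation are not given in the sources used here. Identifiers were matched to GENCODE M21 (54495 of 54532). FPKM times exon length gave whole multiples of 1 read for 96.1% to 96.2% of values above 0 (relative tolerance 1e-06), and for 72 of 77 tested members in every library; reads recovered this way are the depth behind each value.

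After median-of-ratios rescaling (factors 0.999 to 1.00), log2(FPKM + 0.1) was fitted with limma 3.58.1 in R 4.3.3 (eBayes, robust and with trend) for 14227 genes at an FPKM of 0.5 or above in 3 or more libraries. Tests were two-sided, with Benjamini-Hochberg adjustment over all of these and a call at 0.05. The script was tested on simulated data. Alternatives covered scaling, pseudocount, filter, eBayes options, voom on recovered reads, a replicate block and leaving out each library.

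The members and lists were chosen with earlier results of these data known. Members given with values were those with the 6 smallest p in each direction, the 5 highest and 5 lowest levels, those under the minimum, and 22 picked for their role. Mrpl42, Mrpl30, Mrpl52, Mrpl46 and Mrps11, the motifs, and the lists of cytosolic ribosomal proteins and nuclear respiratory chain genes were added after values were seen.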

Additional observations from a re-analysis of the deposited data

How the results depend on the processing

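Of 80 counts and medians recomputed under settings that kept all libraries, 76 stayed within 1.5 times the reported count or within 1 SD of the reported median. Not every setting could move them. The eBayes options and the replicate block leave each log2 fold change as it was, and the deposited FPKM barely differ from the rescaled values. The exceptions among the 80 follow. Counting members at an unadjusted p under 0.05 gave 61 lower, in place of 0. Scaling to the summed FPKM of nuclear genes, added after seeing the data, moved the median of all genes to 0.23, left 27 members lower at an unadjusted p under 0.05 (61 in the reported fit) and 36 without overlap (68), and gave a member median of −0.26. Relative to the median of all genes, members lay at −0.50 in both scalings, a value that could hardly change because all genes shift nearly alike. Under the nuclear scaling Mrpl24 turned to 0.10 and Mrpl52 to 0.24. Mrpl52 also turned to 0.078 with quantile normalization and to 0.030 with voom on recovered reads. Under the nuclear scaling 3 translation factors, 7 assembly factors, 3 tRNA synthetases, 2 genes of mitochondrial DNA transcription and replication, and 3 of 83 respiratory chain genes also turned above 0. With quantile normalization both mitochondrial rRNAs, mt-Nd6, 4 of 12 cardiomyocyte markers and 4 of 83 respiratory chain genes did.

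Leaving out 1 library at a time gave 0 to 29 members called lower and 0 to 1 higher, 39 to 65 lower at an unadjusted p under 0.05, and member medians of −0.60 to −0.39. The 29 and the 1 came without HFpEF replicate 3, where 0.0160 was the lowest adjusted p by limma, and the 39 and 40 without Chow replicates 1 and 2. The lists of translation and assembly factors, tRNA synthetases and mitochondrially encoded genes had 0 to 8, 0 to 2 and 0 to 3 called lower, the highest counts again without HFpEF replicate 3. Mrps6 ranged from −0.16 to 0.62, being below 0 without HFpEF replicate 1 (−0.054) or 2 (−0.16), and Mrpl52 from −0.22 to 0.16, being above 0 without Chow replicate 2 (0.0068) or 3 (0.068) or HFpEF replicate 1 (0.026) or 2 (0.16). The causes were not tested.

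Samples with the same replicate number did not deviate together (correlations of −0.041, −0.073 and −0.057 over 14227 genes), so no pairing by number was seen. Pairs of unlike number reached 0.072 (Chow replicate 3 with HFpEF replicate 2). A shared batch cannot be read from these values. With the replicate block, 0 members were called, 61 were lower at an unadjusted p under 0.05, the median was −0.51 and the lowest adjusted p of a member was 0.194 by limma, and 2 of all genes were called in place of 14. With 3 mice per group, the exact permutation p cannot fall under 0.1, and genes of few reads, such as the lowest member count of 92, have the largest counting error.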
